A study of Homo sapiens with 16 samples.

Results

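The subunits of the mitochondrial respiratory chain and of ATP synthase were followed in RNA-seq of 293T cells, a human embryonic kidney line. Members were chosen by gene symbol, with earlier results of these data known. They were the NDUF, SDH, UQCR, COX and ATP5 subunit genes of the nucleus and the ND, CO, CYB and ATP genes of mitochondrial DNA. This gave 92 of the 58884 genes listed. Of these, 79 were nuclear (37 for complex I, 4 for complex II, 9 for complex III, 11 for complex IV and 18 for complex V) and 13 were mitochondrial (7, 0, 1, 3 and 2). Wild-type 293T cells received scramble siRNA, SETD2 siRNA or hnRNP L siRNA for 72 hours, and each group holds 2 libraries, which the methods describe as independent biological replicates. The labels number the SETD2 libraries 2 and 3 and the others 1 and 2. SETD2 is the methyltransferase that places trimethylation on histone H3 lysine 36, and hnRNP L is an RNA-binding splicing regulator. The groups were compared to ask which transcripts depend on either protein.

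The respiratory chain passes electrons from NADH through complex I, or from succinate through complex II, to ubiquinone, on through complex III and cytochrome c to complex IV, where oxygen is reduced. Complexes I, III and IV pump protons, and complex V, the ATP synthase, makes ATP as the protons flow back. Complex II is built from nuclear genes alone, while the other complexes combine nuclear subunits, imported from the cytosol, with subunits made inside the organelle. The mitochondrial genes are transcribed as long precursors from both strands and are then cut apart, largely at the tRNAs between them, so that neighbouring messages start out on 1 molecule. The mitochondrial genes code for core subunits, among them the cytochrome b of complex III and the oxygen-reducing subunit of complex IV.

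3 junctions on mitochondrial DNA are shown because reads from them can be credited to either neighbouring gene, and because MT-ATP6 and MT-CO3 differ in the results while the genes of the other two pairs stay close. Sequences are read 5′ to 3′ on the + strand of hg38, which is the strand these messages have, and capitals mark the bases that both genes share. For MT-ATP6 and MT-CO3 the capitals mark the stop codon of the first and the start codon of the second, which share 1 base. The windows are chrM:8507-8592, chrM:10740-10786 and chrM:9185-9229, and the shared parts are 46 and 7 bases long for the first and second pair.
MT-ATP8/MT-ATP6: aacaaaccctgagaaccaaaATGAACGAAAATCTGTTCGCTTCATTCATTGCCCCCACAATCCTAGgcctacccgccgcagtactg
MT-ND4L/MT-ND4: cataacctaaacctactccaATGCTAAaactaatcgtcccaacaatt
MT-ATP6/MT-CO3: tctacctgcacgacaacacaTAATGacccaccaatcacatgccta

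Expression was given as TPM, a length-corrected share of transcripts that is scaled to the same total in every library. TPM keep no read counts per gene, so no counting error can be given. The study reports the number of read pairs of each library, which was not used here. HNRNPL stood at 25.0 and 28.8 TPM with its siRNA and between 341.04 and 457 TPM in the other libraries, and SETD2 at 4.24 and 4.91 TPM with its siRNA and between 10.2 and 13.4 TPM elsewhere. Of 6 markers listed for this line, VIM was at 649.5 to 941 TPM, NEFM at 184 to 454 TPM, KRT18 at 59.7 to 77.2 TPM, KRT8 at 31.1 to 43.4 TPM, INA at 8.56 to 12.3 TPM and PAX2, a kidney transcription factor, at 1.65 to 2.79 TPM. The summed markers of other cells were at 5.64 to 8.25 TPM, and the leukocyte marker PTPRC was at 0 in all 6 libraries. 1 library stood apart. In replicate 1 of scramble siRNA the 13 mitochondrial subunits made up 16.6% of all TPM, against 7.38% in replicate 2, 6.26% and 6.31% with SETD2 siRNA, and 10.4% and 8.32% with hnRNP L siRNA. Each of the 13 was higher there than in every other library, by 1.55-fold (MT-ND3) to 4.22-fold (MT-ND6) over the other scramble library. The 79 nuclear subunits together were lowest in the same library, at 2.19% of TPM against 2.38% to 2.66%. The counts and medians of each comparison with scramble siRNA are therefore also given without this library. Fewer cells with a transcript and less of it per cell cannot be told apart in these bulk samples.

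Mitochondrial and nuclear subunits were first compared within each complex and library, as the summed TPM of the mitochondrial genes over that of the nuclear genes. For complex I the ratio was 5.19 and 2.07 in the scramble libraries, 1.84 and 1.92 with SETD2 siRNA, and 3.26 and 2.70 with hnRNP L siRNA. For complex III, where MT-CYB is the single mitochondrial subunit, it was 1.68 and 0.665, then 0.601 and 0.614, then 0.853 and 0.598. For complex IV it was 11.3 and 4.91, then 3.68 and 3.94, then 5.84 and 4.94. Complex IV thus had the highest ratio in every library and complex III the lowest. For complex V the ratio was 9.76 and 3.85, then 2.64 and 2.96, then 5.50 and 4.45. For complexes I, IV and V both hnRNP L libraries lay above both SETD2 libraries, and for complex III the groups overlapped. All SETD2 ratios lay below both scramble ratios, and scramble replicate 2 lay closer to them than to scramble replicate 1. Complex II has no mitochondrial subunit, and its 4 nuclear genes summed to between 376 and 442 TPM.

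**Figure D1:**
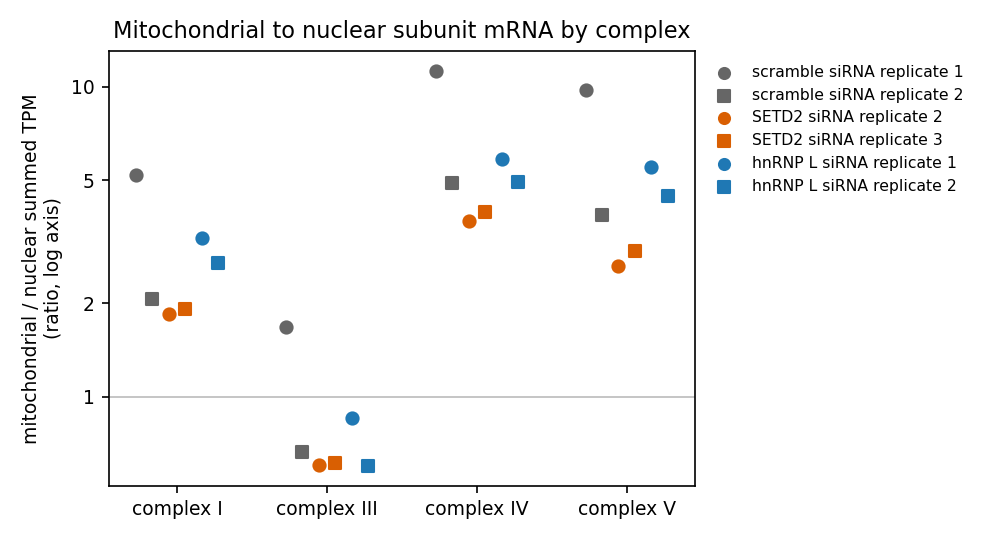
Ratio of summed TPM of mitochondrial to nuclear subunits (log axis) for complexes I, III, IV and V, with 1 point per library, coloured by siRNA. Scramble replicate 1 is the highest point in each complex (5.19, 1.68, 11.3 and 9.76), and in complexes I, IV and V both hnRNP L points lie above both SETD2 points.

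On the log2 scale the ratio differed between hnRNP L and SETD2 siRNA by 0.66 for complex I, 0.23 for complex III, 0.50 for complex IV and 0.83 for complex V, against a spread between replicates (pooled SD, n = 2 per group) of 0.14, 0.26, 0.13 and 0.17. The difference exceeded the spread in complexes I, IV and V, and in complex III it did not. Between SETD2 and scramble siRNA the differences were -0.80, -0.80, -0.97 and -1.13 with spreads of 0.66, 0.67, 0.60 and 0.68, and without scramble replicate 1 they were -0.14, -0.13, -0.37 and -0.46. Between hnRNP L and scramble siRNA the differences were -0.14, -0.57, -0.47 and -0.31, all within the spread, and all turned positive without scramble replicate 1 (0.52, 0.10, 0.13 and 0.36). With 2 libraries against 2 an exact two-sided permutation test cannot go below p = 0.333, so these ratios carry no test.

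The mitochondrial subunits themselves spanned a wide range. MT-ATP8, a small membrane subunit of ATP synthase, was the highest and MT-CO2, which takes electrons from cytochrome c into complex IV, came next in all 6 libraries. MT-ND6, the one subunit gene on the opposite strand, was the lowest in all 6. TPM divide by gene length, and MT-ATP8 (207 bases) and MT-ND4L (297 bases) are so short that their levels may depend on how the authors' quantification treated fragments longer than the gene. Whether the libraries kept the strand is not given in the sources used here, so MT-ND6 reads and heavy-strand RNA across the same bases cannot be told apart. RNA was ribodepleted and polyA-enriched, so each level describes RNA that passed these steps. How well the MT-ND6 message passed them was not tested.

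Within complex I, MT-ND1, which lies beside the ubiquinone site, was at 4628 and 2034 TPM in the scramble libraries, 2091 and 1922 TPM with SETD2 siRNA, and 2736 and 2232 TPM with hnRNP L siRNA. MT-ND2, a proton-pumping membrane subunit, was at 5226 and 2530.3 TPM, then 2715 and 2474 TPM, then 3428 and 2569 TPM. MT-ND3, a small membrane subunit, was at 6429 and 4142 TPM, then 4699 and 3623 TPM, then 4722 and 3366 TPM. For MT-ND2 and MT-ND3 the hnRNP L and SETD2 groups overlapped, and scramble replicate 1 was the one library clearly above the rest. MT-ND4L was at 7579 and 2620.3 TPM, then 2812 and 3065 TPM, then 5603 and 4882 TPM. MT-ND4, a proton-pumping subunit, was at 10736 and 4223 TPM, then 3773 and 4062 TPM, then 8298 and 6971 TPM. MT-ND5, its relative at the end of the membrane arm, was at 3461 and 1288 TPM, then 1063 and 1318 TPM, then 2445 and 2303 TPM. In these 3 genes, which follow each other on the heavy-strand transcript, both hnRNP L libraries lay well above both SETD2 libraries and scramble replicate 2 but below scramble replicate 1. MT-ND6 was at 330 and 78.2 TPM, then 105 and 107 TPM, then 157 and 158 TPM. As a ratio, the scramble libraries of MT-ND6 differed more than those of any other mitochondrial subunit, and its hnRNP L group lay above the SETD2 group.

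In complex III, MT-CYB, the cytochrome b that oxidizes ubiquinol, was at 3920 and 1629 TPM in the scramble libraries, 1625 and 1599 TPM with SETD2 siRNA, and 2349 and 1603 TPM with hnRNP L siRNA. Apart from scramble replicate 1 and hnRNP L replicate 1, its libraries were close to each other. In complex IV, MT-CO1, which holds the oxygen-reducing centre, was at 19632 and 8131 TPM, then 6164 and 6314 TPM, then 10024 and 8949 TPM. MT-CO2 was at 26259 and 12385 TPM, then 10422 and 10325 TPM, then 14800 and 11559 TPM. Both genes were lowest in the SETD2 group, with no overlap with the other groups. MT-CO3, a core subunit without redox centres, was at 17570 and 8077 TPM, then 6392 and 6172 TPM, then 8244 and 6221 TPM, and its hnRNP L and SETD2 groups overlapped. In complex V, MT-ATP6, part of the proton channel, was at 17040 and 7314 TPM, then 6241 and 6154 TPM, then 12363 and 9437 TPM. MT-ATP8 was at 43177 and 19353 TPM, then 14478 and 15970 TPM, then 28450 and 22918 TPM. Both complex V genes were higher in both hnRNP L libraries than in the SETD2 libraries and in scramble replicate 2.

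**Figure D2:**
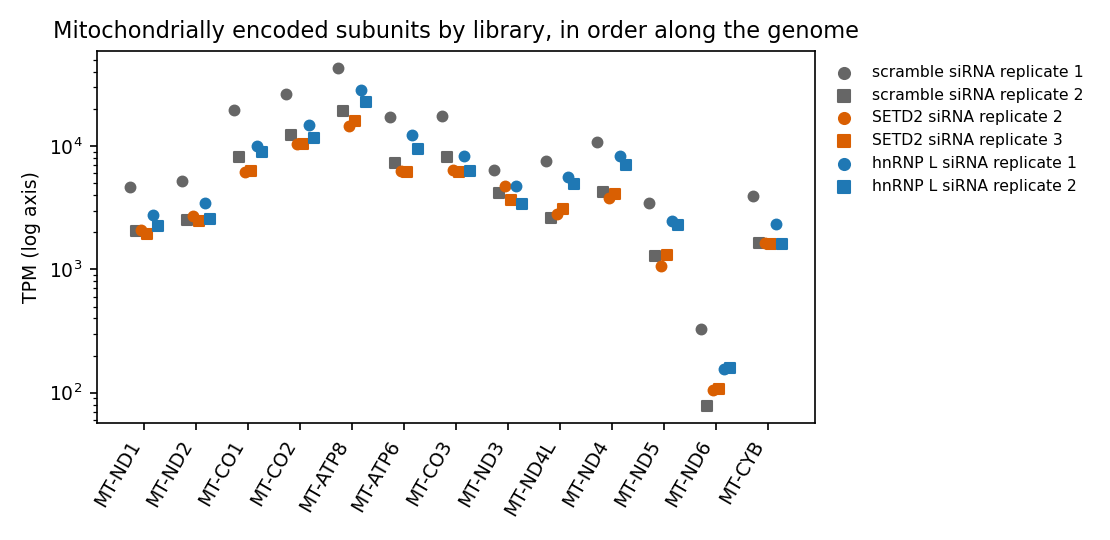
TPM (log axis) of the 13 mitochondrial subunits in order of position on mitochondrial DNA, with 1 point per library, coloured by siRNA. Scramble replicate 1 is the highest point for every gene, and for MT-ND4L, MT-ND4 and MT-ND5 the hnRNP L points lie between it and the remaining libraries.

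All genes with a mean of at least 0.5 TPM over the 6 libraries, 16300 in all, were fitted together with limma on log2(TPM + 0.5), and p-values were adjusted over all of them. All 13 mitochondrial and 78 nuclear subunits passed this filter, while ATP5MGL, a copy of the ATP synthase g subunit gene, was listed between 0 and 0.09 TPM and was not tested. A gene was called when its fold change was above 1.5 and its adjusted p was under 0.05. With SETD2 against scramble siRNA, limma called 0 of the 13 mitochondrial subunits, where 0.104% of all genes were called. All 13 had negative log2 fold changes, from -1.02 ± 0.33 (SE) for MT-CO1 (adjusted p = 0.264) to -0.32 ± 0.24 for MT-ND3. The median was -0.78 against 0.01 for all genes, and 6 had an unadjusted p under 0.05 (46.2%, against 13.1% of all genes). The groups did not overlap in 7 of the 13, with SETD2 siRNA lower, which was the case in 20.6% of all genes. Without scramble replicate 1 the median was -0.11, 3 of the 13 fold changes were positive and 0 were called, where 0.0307% of all genes were called lower, while without scramble replicate 2 the median was -1.46 and 10 were called lower, where 0.196% of all genes were.

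With hnRNP L against scramble siRNA, limma again called 0 of the 13 mitochondrial subunits, where 6.76% of all genes were called. An unadjusted p under 0.05 was found in 1 (7.69%, against 28.4% of all genes). This was MT-CO3, at -0.73 ± 0.31 (SE, adjusted p = 0.162). The log2 fold changes ranged from there to 0.23 ± 0.39 for MT-ND4L, with a median of -0.29 against -0.08 for all genes. Of the 13, 3 were positive (23.1%, against 38.8% of all genes). No mitochondrial subunit had groups without overlap, where 18.8% of all genes were higher without overlap and 37.8% lower. The direction turned with the scramble library used. Without replicate 1 the median was 0.28 and MT-ND4, MT-ND4L, MT-ND5 and MT-ND6 were called higher (log2 fold changes of 0.85, 1.00, 0.88 and 1.01, with limma adjusted p between 0.0142 and 0.0399), where 0.607% of all genes were called higher. Without replicate 2 the median was -0.82 and 8 of the 13 were called lower, where 3.39% of all genes were. Each of these fits leaves 1 scramble library, which is taken to vary like the other groups.

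hnRNP L and SETD2 siRNA were also compared with each other, which sets no scramble value against them. limma called 0 of the 13 mitochondrial subunits, where 6.84% of all genes were called. An unadjusted p under 0.05 was found in 4 (30.8%, against 28.5% of all genes). These were MT-ND5 at 1.00 ± 0.36 (SE, adjusted p = 0.111), MT-ND4 at 0.96 ± 0.35 (0.112), MT-ATP6 at 0.80 ± 0.33 (0.151) and MT-ATP8 at 0.75 ± 0.32 (0.167). Of the 13, 12 had positive log2 fold changes, with a median of 0.57 against -0.10 for all genes, and 9 had both hnRNP L libraries above both SETD2 libraries, which was the case in 18.6% of all genes. The scramble libraries enter this comparison through the shared estimate of the spread, which scramble replicate 1 widens for mitochondrial genes. When only the 4 libraries compared were fitted, the same fold changes had smaller errors and 6 of the 13 were called higher, where 2.0% of all genes were. These 6 were MT-ND5 (1.00 ± 0.11, adjusted p = 0.0107), MT-ND4 (0.96 ± 0.10, adjusted p = 0.0101), MT-ND4L (0.83 ± 0.09, adjusted p = 0.0104), MT-ATP6 (0.80 ± 0.13, adjusted p = 0.0232), MT-ATP8 (0.75 ± 0.115, adjusted p = 0.0223) and MT-CO1 (0.60 ± 0.07, adjusted p = 0.0142).

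The mitochondrial genes did not differ evenly, which shows in the share that each took of the TPM of the 13 subunits. This share does not depend on how much mitochondrial RNA a library holds. MT-ND4 took 8.01% and 8.38% with hnRNP L siRNA against 6.47% and 5.72% with scramble siRNA and 6.03% and 6.44% with SETD2 siRNA. MT-CO3 took 7.96% and 7.48% against 10.6% and 10.9% with scramble siRNA and 10.2% and 9.78% with SETD2 siRNA. In every library without hnRNP L siRNA MT-CO3 stood above MT-ND4, and with hnRNP L siRNA the order was reversed. The ratio of MT-ND4 to MT-CO3 TPM was 1.01 and 1.12 with hnRNP L siRNA and between 0.523 and 0.658 in the other 4 libraries, scramble replicate 1 among them. MT-ATP6, which abuts MT-CO3 at the junction printed above, moved apart from it in the same way. The ratio of MT-ATP6 to MT-CO3 was 1.5 and 1.52 with hnRNP L siRNA and between 0.906 and 0.997 in the others. By contrast, the overlapping pairs stayed near each other. MT-ATP8 over MT-ATP6 was 2.30 and 2.43 with hnRNP L siRNA and 2.32 to 2.65 elsewhere, and MT-ND4L over MT-ND4 was 0.675 and 0.700 against 0.620 to 0.755.

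The genes set side by side here were chosen after their values were seen, so these shares and ratios are a description and carry no test. The 2 mitochondrial ribosomal RNAs, which share a promoter region with the heavy-strand messages, were not called in any comparison. All 22 mitochondrial tRNA genes were listed at 0. As RNA was ribodepleted and polyA-enriched, these values describe only what was left after both steps. MT-RNR2 was at 7300 TPM in scramble replicate 1 and at 3037 to 3819 TPM in the other libraries.

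**Figure D3:**
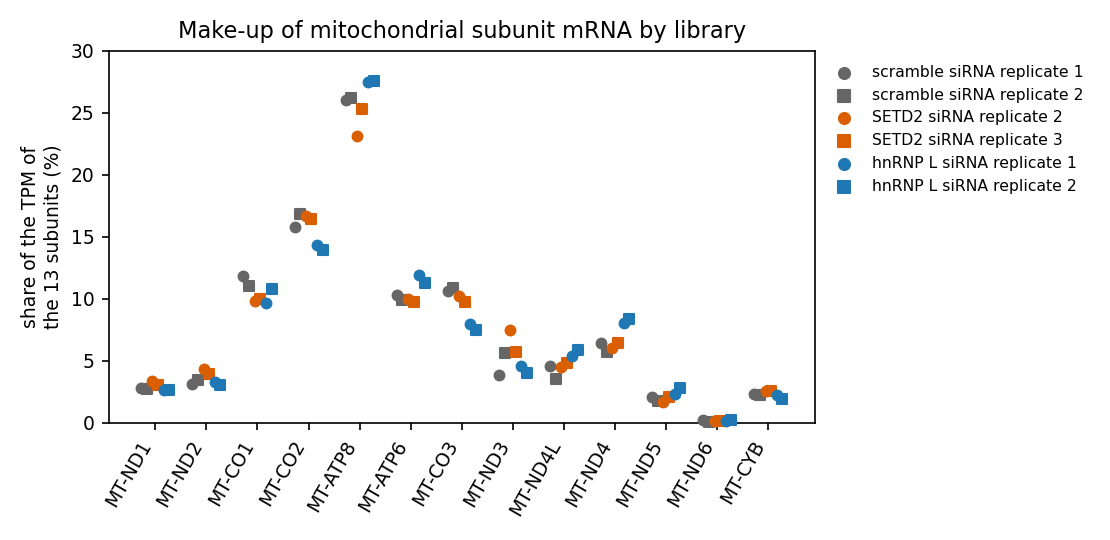
Share of the summed TPM of the 13 mitochondrial subunits taken by each (percent), in order of position on mitochondrial DNA, with 1 point per library. With hnRNP L siRNA MT-ND4 (8.01% and 8.38%) lies above and MT-CO3 (7.96% and 7.48%) below all other libraries.

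The nuclear subunits were less abundant and closer together. Their mean levels over the 6 libraries ran from 16.1 to 1697 TPM with a median of 222 TPM, against 156 to 24058 TPM and a median of 4497 TPM for the mitochondrial subunits. In complex I the lowest was NDUFV3, an accessory subunit of the NADH-binding module (20.3 ± 1.2 TPM, SD over the 6 libraries), and the highest NDUFB10, an accessory subunit of the membrane arm (922 ± 53 TPM). In complex II, SDHD, a membrane anchor (56.1 ± 4.9 TPM), was the lowest and SDHB, the iron-sulfur subunit (150.4 ± 11.0 TPM), the highest. In complex III, UQCRHL, a copy of the hinge protein gene UQCRH (16.1 ± 2.1 TPM), was the lowest and UQCRH itself (890.1 ± 87.5 TPM) the highest, and reads of such copies may have been shared between them. In complex IV, NDUFA4 (70.8 ± 6.9 TPM), which was first assigned to complex I and is now counted in complex IV, was the lowest and COX6A1 (1531 ± 120 TPM) the highest. In complex V, ATP5F1E, the epsilon subunit of the central stalk (57.8 ± 8.3 TPM), was the lowest of those tested and ATP5MF, the membrane subunit f (1697 ± 197 TPM), the highest. In GENCODE, ATP5MF shares its strand and bases with the read-through gene ATP5MF-PTCD1, and 32 of the 79 nuclear subunit genes overlap another annotated gene on their strand, so that part of such a level may belong to the neighbour.

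With SETD2 against scramble siRNA, limma called 0 of the 78 nuclear subunits, where 0.104% of all genes were called, and 21 had an unadjusted p under 0.05 (26.9%, against 13.1% of all genes), all of them higher. The changes were small and mostly upward. Of the 78, 68 had a log2 fold change above 0, against 52.6% of all genes, and the median was 0.17 against 0.01 for all genes. Both SETD2 libraries lay above both scramble libraries in 49 (62.8%), against 22.9% of all genes, and below them in 2 (2.56%, against 20.6%). By complex the medians were 0.22 (I), 0.12 (II), 0.17 (III), 0.12 (IV) and 0.23 (V). Other nuclear genes that serve mitochondria also had medians above that of all genes. These were 0.14 for mitochondrial ribosomal proteins, 0.09 for assembly factors and 0.08 for TCA cycle genes. The mitochondrial share of TPM was highest in scramble replicate 1, where the nuclear subunits were lowest. With TPM rescaled without the mitochondrially encoded genes the nuclear median was 0.07, against -0.07 for all genes. Without scramble replicate 1 the nuclear median was 0.08, against -0.02 for all genes, with 61 of 78 above 0.

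The nuclear subunits that differed most with SETD2 siRNA, none of them called, were NDUFS6, NDUFC1, NDUFB2, NDUFA12, ATP5F1E and ATP5MPL. NDUFS6, an accessory subunit of complex I with a zinc site, was at 175 and 211 TPM in the scramble libraries and 278 and 250 TPM with SETD2 siRNA, a log2 fold change of 0.45 ± 0.12 (SE, limma adjusted p = 0.209). NDUFC1, a membrane-arm subunit, went from 131 and 120 TPM to 175 and 161 TPM. NDUFB2, also in the membrane arm, went from 88.1 and 85.1 TPM to 115 and 116 TPM. NDUFA12, which joins late in the building of the peripheral arm, went from 209 and 181 TPM to 251 and 255 TPM. In all of these the SETD2 group lay above the scramble group without overlap. The other two were subunits of complex V. ATP5F1E was at 48.2 and 47.1 TPM in the scramble libraries and 65.8 and 58.3 TPM with SETD2 siRNA, and ATP5MPL, a small membrane subunit, went from 294 and 324 TPM to 403 and 392 TPM. The log2 fold changes of these 5 lay between 0.36 and 0.42, with adjusted p between 0.184 and 0.216. NDUFA4 had the most negative value, -0.22, with 78.3 and 70.0 TPM against 68 and 59 TPM.

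**Figure D4:**
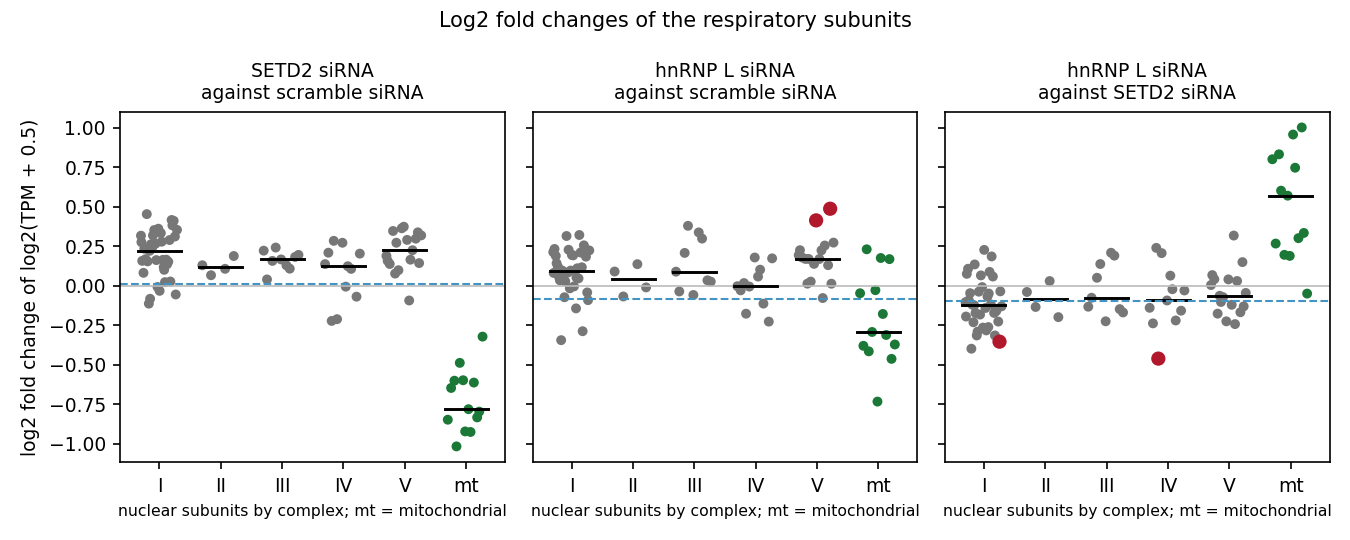
Log2 fold changes of the nuclear subunits by complex and of the 13 mitochondrial subunits (green) in the 3 comparisons, with 1 point per gene, a black bar at each median, a dashed line at the median of all tested genes, and large red points for an adjusted p under 0.05. The nuclear medians lie between -0.12 and 0.23, while the mitochondrial medians are -0.78, -0.29 and 0.57.

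With hnRNP L against scramble siRNA, limma called 0 of the 78 nuclear subunits, where 6.76% of all genes were called. Without the limit on the fold change, 2 rose and 0 fell, where 2.72% of all genes rose and 8.48% fell, and 12 had an unadjusted p under 0.05 (15.4%, against 28.4% of all genes). Both that rose belong to the rotating central stalk of ATP synthase, whose delta and epsilon subunits they encode. ATP5F1D, at 1241746 to 1244825 on chromosome 19 (hg38, + strand), stood at 139 and 148 TPM in the scramble libraries, 199 and 165 TPM with SETD2 siRNA, and 200.06 and 202 TPM with hnRNP L siRNA. The scramble libraries were below all others. The log2 fold change with hnRNP L siRNA was 0.49 ± 0.11 (SE, limma adjusted p = 0.0289). ATP5F1E, at 59025475 to 59032345 on chromosome 20 (- strand), stood at 48.2 and 47.1 TPM, then 65.8 and 58.3 TPM, then 62.5 and 64.9 TPM, with the same order of groups. Its log2 fold change was 0.41 ± 0.10 (adjusted p = 0.0342). ATP5F1D was under 0.05 in 11 of 19 alternatives. It was not without scramble replicate 1 (adjusted p = 0.106), scramble replicate 2 (0.0581) or either hnRNP L library (0.153 and 0.180), with a replicate block (0.0545), with no filter on low values (0.102) or with no variance trend (0.0739). ATP5F1E was under 0.05 in 6 of 19. It was not in any fit with a library left out (0.0578 to 0.178), with a replicate block (0.0755), with TPM rescaled without the mitochondrial genes (0.0532), with only the groups compared (0.0583), with no filter (0.0837) or with no variance trend (0.0806).

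**Figure D5:**
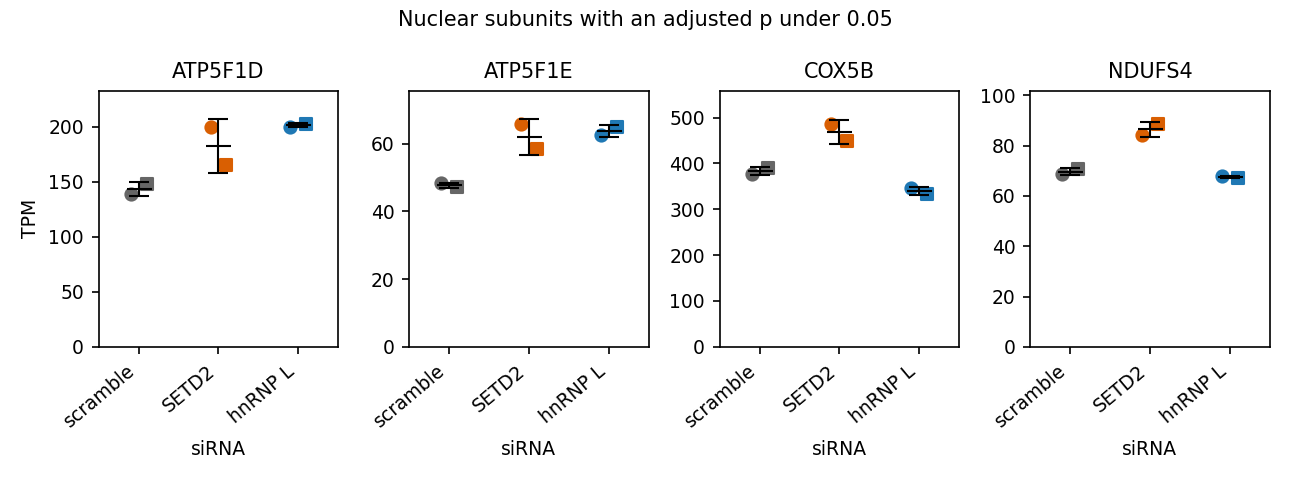
TPM of the 4 nuclear subunits with an adjusted p under 0.05 in any comparison, by siRNA, with 1 point per library (circle for the lower and square for the higher replicate number) and the mean ± SD (n = 2). ATP5F1D and ATP5F1E are lowest with scramble siRNA, and COX5B and NDUFS4 are highest with SETD2 siRNA.

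The next nuclear subunits by size of change with hnRNP L siRNA, chosen among those without overlap of the groups and none of them past the limit, were UQCRHL, NDUFB9, UQCR11 and NDUFA3. UQCRHL was at 14.6 and 13 TPM in the scramble libraries and 17.5 and 18.7 TPM with hnRNP L siRNA (log2 fold change 0.38 ± 0.11, adjusted p = 0.0668), and its abundant relative UQCRH went from 785 and 830 TPM to 1004 and 982 TPM. NDUFB9, a membrane-arm subunit of complex I, was at 390 and 348 TPM and then 283 and 298 TPM (-0.34 ± 0.11, adjusted p = 0.0750). UQCR11, a small subunit of complex III, was at 72.1 and 76.9 TPM and then 98.5 and 90.2 TPM (0.34 ± 0.11, adjusted p = 0.0821). NDUFA3, another small membrane-arm subunit, was at 220 and 247 TPM and then 306 and 277 TPM (0.32 ± 0.12, adjusted p = 0.119). Across the 78 the median was 0.10, against -0.08 for all genes, and 59 were above 0 (75.6%, against 38.8% of all genes). Both hnRNP L libraries lay above both scramble libraries in 33 (42.3%, against 18.8% of all genes) and below them in 8 (10.3%, against 37.8%). By complex the median was highest for V (0.17, with 16 of 17 above 0) and lowest for IV (-0.003, with 5 of 11). In other sets of nuclear genes that serve mitochondria the median was 0.11 (ribosomal proteins), 0.07 (assembly factors) and -0.08 (TCA cycle). With median-ratio scaling the median of all genes was 0.005, with 429 genes called higher and 518 lower in place of 286 and 816. The nuclear median was then 0.20. Without scramble replicate 1 the nuclear median was 0.01, against -0.11 for all genes, with 40 of 78 above 0.

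With hnRNP L against SETD2 siRNA, limma called 0 of the 78 nuclear subunits, where 6.84% of all genes were called. Without the limit on the fold change, 0 rose and 2 fell, where 2.77% of all genes rose and 7.99% fell, and 13 had an unadjusted p under 0.05 (16.7%, against 28.5% of all genes). COX5B, the zinc-binding subunit of complex IV, at 97646062 to 97648383 on chromosome 2 (+ strand), stood at 377 and 391 TPM in the scramble libraries, 486 and 449.7 TPM with SETD2 siRNA, and 346 and 333 TPM with hnRNP L siRNA. The 3 groups did not overlap, with SETD2 siRNA highest and hnRNP L siRNA lowest. The log2 fold change was -0.46 ± 0.10 (SE, limma adjusted p = 0.0209). NDUFS4, an accessory subunit of complex I that helps hold the NADH-binding module in place, at 53560633 to 53683338 on chromosome 5 (+ strand), stood at 68.6 and 70.6 TPM, then 84.3 and 88.7 TPM, then 67.8 and 67.2 TPM. Here hnRNP L and scramble siRNA were close together and SETD2 siRNA was higher. The log2 fold change was -0.35 ± 0.09 (adjusted p = 0.0436). COX5B was under 0.05 in 10 of 17 alternatives and NDUFS4 in 8 of 17. With median-ratio scaling neither was (adjusted p = 0.0639 and 0.0798), nor when any SETD2 or hnRNP L library was left out (0.111 to 0.225), with no filter (0.0747 and 0.0728) or with no variance trend (0.0580 and 0.0966), and NDUFS4 was not with quantile normalization (0.0675) or with TPM rescaled without the mitochondrial genes (0.0573).

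Among the nuclear subunits that did not pass but whose groups did not overlap, NDUFS6 was at 278 and 250 TPM with SETD2 siRNA and 193 and 206 TPM with hnRNP L siRNA (-0.40 ± 0.12, adjusted p = 0.0646). NDUFS3, a core subunit of the peripheral arm, was at 148 and 139 TPM and then 109 and 122 TPM (-0.32 ± 0.12, adjusted p = 0.117). NDUFA9, an accessory subunit of the same arm, was at 76.4 and 77.2 TPM and then 63.9 and 59.5 TPM (-0.32 ± 0.10, adjusted p = 0.0881). All of these were lower with hnRNP L siRNA. In the opposite direction ATP5F1B, the catalytic beta subunit of ATP synthase, was at 497 and 497 TPM with SETD2 siRNA and 631 and 608 TPM with hnRNP L siRNA (0.32 ± 0.12, adjusted p = 0.112). It was at 480.3 and 586 TPM in the scramble libraries. The nuclear median was -0.10, as for all genes, and 23 of 78 were above 0 (29.5%, against 35.8%). Both hnRNP L libraries lay above both SETD2 libraries in 11 (14.1%, against 18.6% of all genes) and below them in 41 (52.6%, against 41.2%). With median-ratio scaling 453 genes were called higher and 473 lower in place of 350.0 and 765. The nuclear median was then 0.003, against -0.003 for all genes, with 40 of 78 above 0. The mitochondrial median of 0.57 became 0.68.

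Sequences upstream of nuclear subunits with an adjusted p under 0.05 are shown to set their promoters beside motifs of factors known for respiratory genes. RefSeq promoters (GRCh38.p14) matched 62 of the 79 nuclear symbols, and the 250 bases before the gene start were searched on both strands for the NRF1 motif (GCGCA, any base, then GCGC) and the ETS motif CCGGAAG, neither of which lies within the other. The NRF1 motif was present in 13 of the 62 (21.0%), against 5.53% of all 27305 promoters, and the ETS motif in 16 (25.8%), against 8.82%. 27 of the 62 (43.5%) held at least 1 of these motifs, against 13.4% of all promoters. Capitals mark a motif, here an ETS match in COX5B. The windows are chr2:97645812-97646061 (+ strand), chr20:59032336-59032585 (- strand) and chr5:53560389-53560638 (+ strand).
COX5B: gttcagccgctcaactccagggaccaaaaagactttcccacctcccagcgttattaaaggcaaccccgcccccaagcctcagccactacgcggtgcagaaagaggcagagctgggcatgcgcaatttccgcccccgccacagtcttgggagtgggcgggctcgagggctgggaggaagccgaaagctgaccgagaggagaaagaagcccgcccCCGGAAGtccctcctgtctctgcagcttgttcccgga
ATP5F1E: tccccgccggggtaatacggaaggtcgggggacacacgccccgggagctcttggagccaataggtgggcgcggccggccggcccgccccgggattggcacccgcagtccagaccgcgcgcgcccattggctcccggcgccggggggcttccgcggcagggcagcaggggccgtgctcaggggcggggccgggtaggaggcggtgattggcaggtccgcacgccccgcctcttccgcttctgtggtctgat
NDUFS4: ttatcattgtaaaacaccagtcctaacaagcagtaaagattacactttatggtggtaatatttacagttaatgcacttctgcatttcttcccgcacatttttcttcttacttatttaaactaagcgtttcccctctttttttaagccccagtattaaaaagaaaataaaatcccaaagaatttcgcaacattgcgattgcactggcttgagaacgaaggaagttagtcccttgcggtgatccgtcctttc
The windows of ATP5F1E and NDUFS4 held neither run of letters, and ATP5F1D had no matching entry.

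Genes that build and serve the respiratory chain were counted by list. Of 56 assembly factors, limma at an adjusted p under 0.05 found 1 higher and 2 lower with hnRNP L against scramble siRNA, 0 higher and 4 lower with hnRNP L against SETD2 siRNA, and 0 with SETD2 against scramble siRNA, where 11 had an unadjusted p under 0.05. Of all genes, 2.72% were higher and 8.48% lower in the first of these comparisons, 2.77% and 7.99% in the second, and 13.1% had an unadjusted p under 0.05 in the third. SURF1, which inserts heme into complex IV, was at 17.7 and 21.7 TPM in the scramble libraries, 20.7 and 19.4 TPM with SETD2 siRNA, and 13.1 and 12.1 TPM with hnRNP L siRNA, and fell by 0.62 and 0.65 on the log2 scale against the other groups (adjusted p = 0.0203 and 0.0167). UQCC1, which helps assemble cytochrome b into complex III, was at 34.7 and 40.1 TPM, then 42.5 and 44.95 TPM, then 24.2 and 25.1 TPM, and fell by 0.59 and 0.81 (adjusted p = 0.0137 and 0.00478). NDUFAF3, a complex I assembly factor, rose against scramble siRNA by 0.37 (adjusted p = 0.0482), and ACAD9 and TMEM126B, of the same assembly machinery, fell against SETD2 siRNA by 0.42 and 0.36 (adjusted p = 0.0270 and 0.0478).

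Among 6 electron carriers and subunits outside the symbol rule that were tested, COX7A2L, which helps join complexes III and IV into supercomplexes, was at 94.5 and 99.4 TPM in the scramble libraries, 64.3 and 64.9 TPM with SETD2 siRNA, and 96.9 and 96.2 TPM with hnRNP L siRNA. Its groups with scramble and hnRNP L siRNA lay together, far above the SETD2 group. Against SETD2 siRNA COX7A2L was higher with hnRNP L siRNA by 0.58 ± 0.09 (SE, limma adjusted p = 0.00898), where 2.77% of all genes were higher. SETD2 siRNA differed from scramble siRNA by -0.58 ± 0.09 (adjusted p = 0.0788). No other gene of this list passed, and CYCS, cytochrome c, lay between 161 and 189.8 TPM throughout.

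Of 17 mitochondrial RNA processing and stability factors, 1 was lower with hnRNP L against scramble siRNA, 1 higher against SETD2 siRNA, and 0 differed between SETD2 and scramble siRNA, with 1 at an unadjusted p under 0.05. These counts stand against 8.48% of all genes lower in the first comparison and 2.77% higher in the second. In the third, 13.1% of all genes had an unadjusted p under 0.05. FASTKD1, an RNA-binding protein of mitochondria, was at 24.0 and 19.8 TPM in the scramble libraries and 13.2 and 14.8 TPM with hnRNP L siRNA, and fell by 0.63 (adjusted p = 0.0193). MTPAP, the mitochondrial poly(A) polymerase, was at 10.3 and 8.80 TPM, then 6.55 and 9.09 TPM, then 14.4 and 12.9 TPM, and rose by 0.78 against SETD2 siRNA (adjusted p = 0.0224). Of 13 genes of mitochondrial DNA and transcription, MTERF1, a DNA-binding transcription termination factor, was at 8.48 and 8.73 TPM, then 9.45 and 8.96 TPM, then 5.53 and 6.05 TPM, and fell by 0.53 and 0.63 (adjusted p = 0.0276 and 0.0159), where 8.48% and 7.99% of all genes were lower. None of the other 12 passed in any comparison.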

How the data were processed

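RNA-seq of 293T cells with scramble, SETD2 or hnRNP L siRNA (2 libraries each) was analysed, and ChIP samples were not analysed here. According to the methods and labels, RNA was ribodepleted and polyA-enriched, and paired reads were aligned with STAR 2.6.1c to hg38. TPM values were computed by the authors with RSEM 1.3.0 and deposited without counts, so the study's count test was replaced by limma. Groups came from the labels. MT-ATP6 and MT-ATP8 end in P and a digit but are named by the rule and were kept, while 56 pseudogene-like names were left out. Members and lists were chosen with earlier results of these data known. For 16300 genes (mean TPM at least 0.5), log2(TPM + 0.5) was fitted with limma 3.58.1 (R 4.3.3, 1 mean per siRNA, variance trend), with Benjamini-Hochberg adjustment. The fit was tested on simulated data. Per-library values are given for the mitochondrial subunits and for nuclear subunits past an adjusted p of 0.05, filled to 6 per comparison by size of change among those whose groups do not overlap. UQCRH, NDUFA4 and the genes named from lists were chosen after their values were seen. Alternatives were other scalings (median-ratio, quantile, without mitochondrial genes), pseudocounts (1, 0.1), filters and gene types, no variance trend, fits of only the groups compared, a replicate block and leaving out single libraries. Python 3.11.15, pandas 2.3.3, NumPy 2.4.6 and Matplotlib 3.10.9 were used. TPM are relative, so a high mitochondrial share lowers all other TPM of its library.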

Additional observations from a re-analysis of the deposited data

How the results depend on the processing

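TPM without counts give no counting error, 2 libraries a group leave few degrees of freedom, and scramble replicate 1 decides most mitochondrial values against scramble siRNA. Of 1007 values of single subunits under alternatives, 862 kept their direction and their side of the threshold, 37 lost an adjusted p under 0.05, 72 gained one and 36, all mitochondrial, changed sign. The log2 ratio of mitochondrial to nuclear subunits between hnRNP L and scramble siRNA changed sign as 1 library was left out, from -0.81 to 0.52 for complex I, -1.23 to 0.10 for III, -1.07 to 0.13 for IV and -0.98 to 0.36 for V, as did that between hnRNP L and SETD2 siRNA for complex III, from -0.0219 to 0.49. Where no cause is given here, it was not tested.

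With SETD2 against scramble siRNA, 0 to 10 subunits were called as 1 library was left out, the nuclear median ran from 0.083 to 0.26 and the mitochondrial from -1.46 to -0.11. With TPM rescaled without mitochondrial genes the nuclear median was 0.0701, against -0.0741 for all genes. Without scramble replicate 1 as well the nuclear median was 0.0652, against -0.0338 for all genes. The mitochondrial median was then -0.13, with MT-ND2 at 0.0166, MT-ND4L at 0.15 and MT-ND6 at 0.42. Leaving out 1 library gave -1.01 to 0.0344 for MT-ND2, -1.37 to 0.16 for MT-ND4L and -1.63 to 0.44 for MT-ND6.

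With hnRNP L against scramble siRNA, 0 to 8 subunits were called as 1 library was left out, 1 with median-ratio scaling, 4 with rescaled TPM without scramble replicate 1, 1 with mitochondrial genes centred on their mean in each library, chosen after seeing the data, without that scramble library and 2 with no limit on the fold change, and the nuclear median was 0.0091 to 0.19 with 1 library left out and 0.20 with median-ratio scaling. Rescaled and without scramble replicate 1, the log2 fold change was 0.59 for MT-ATP6, 0.43 for MT-ATP8, 0.25 for MT-CO1, 0.11 for MT-CO2, 0.28 for MT-CYB, 0.31 for MT-ND1, 0.26 for MT-ND2 and 1.04 for MT-ND6. With median-ratio scaling MT-ATP6 was 0.0523 and MT-ND6 0.0712, and with quantile normalization MT-ATP6 was 0.27. Leaving out 1 library gave -0.66 to 0.56 for MT-ATP6, -0.76 to 0.40 for MT-ATP8, -1.05 to 0.22 for MT-CO1, -1.01 to 0.0787 for MT-CO2, -1.01 to 0.25 for MT-CYB, -0.91 to 0.28 for MT-ND1, -0.82 to 0.23 for MT-ND2, -0.50 to 0.85 for MT-ND4, -0.54 to 1.00 for MT-ND4L, -0.54 to 0.88 for MT-ND5 and -1.06 to 1.01 for MT-ND6.

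With hnRNP L against SETD2 siRNA, 0 to 6 subunits were called as 1 library was left out, 1 with quantile normalization, 2 with protein-coding and lncRNA genes, 6 with the 2 groups alone, 7 with rescaled TPM without scramble replicate 1 and 2 with no limit on the fold change. The nuclear median was 0.0028 with median-ratio scaling, -0.0282 with quantile normalization, -0.0544 with rescaled TPM, also without scramble replicate 1, and -0.13 to -0.0638 with 1 library left out. The mitochondrial median was 0.68 with median-ratio scaling and 0.25 with quantile normalization. MT-CO3 was -0.0234 with quantile normalization, and MT-ND3 0.0566 with median-ratio scaling. Leaving out 1 library gave -0.014 to 0.39 for MT-CO3, -0.0086 to 0.54 for MT-CYB, -0.0125 to 0.40 for MT-ND2 and -0.29 to 0.19 for MT-ND3.

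Scramble and hnRNP L siRNA share replicate numbers. The differences between their replicates correlated at -0.13 across genes, so no effect shared by replicate number was seen. Whether libraries of the same number were prepared together is not given in the labels. With a replicate block 0 subunits were called, the nuclear median stayed at 0.10 and the mitochondrial at -0.29, 210 genes were called higher and 505 lower in place of 286 and 816. With the numbers crossed, chosen after seeing the data, 413 genes were called higher and 993 lower, and 0 subunits.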

Other observations

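Genes that serve the mitochondria outside the respiratory chain were read in the same fits, at an adjusted p under 0.05 (limma). Of 78 mitochondrial ribosomal proteins, which make up the ribosome that translates the 13 subunits, 6 were higher and 1 lower with hnRNP L against scramble siRNA, 2 higher and 2 lower with hnRNP L against SETD2 siRNA, and 0 differed between SETD2 and scramble siRNA, where 15 had an unadjusted p under 0.05. Of all genes, 2.72% were higher and 8.48% lower in the first comparison, 2.77% and 7.99% in the second, and 13.1% had an unadjusted p under 0.05 in the third. MRPS25 was at 55.0 and 64.6 TPM in the scramble libraries, 67.5 and 68.9 TPM with SETD2 siRNA, and 95.1 and 92.7 TPM with hnRNP L siRNA, a log2 fold change of 0.65 ± 0.11 (SE, adjusted p = 0.00957) against scramble siRNA. MRPL40, the one that was lower, was at 68.3 and 79.2 TPM, then 79.5 and 78 TPM, then 51.0 and 55.2 TPM (-0.47 ± 0.11, adjusted p = 0.0287). Of the TCA cycle genes, SUCLG1 and SUCLG2, subunits of succinyl-CoA ligase, were lower with hnRNP L siRNA, at -0.44 against scramble siRNA (adjusted p = 0.0498) and -0.52 against SETD2 siRNA (adjusted p = 0.0219).

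Of 12 regulators of respiratory genes, YY1 and MYC were higher with hnRNP L than with scramble siRNA (0.40 and 0.41, adjusted p = 0.0328 and 0.0412), and YY1 than with SETD2 siRNA (0.44, adjusted p = 0.0246), where 2.72% and 2.77% of all genes were higher. Of 11 genes of mitochondrial dynamics and mass 0 passed in any comparison, with 0, 1 and 3 at an unadjusted p under 0.05 for SETD2 against scramble, hnRNP L against scramble and hnRNP L against SETD2 siRNA, against 13.1%, 28.4% and 28.5% of all genes. Of 6 markers of the line, NEFM, a neurofilament gene, was higher with hnRNP L than with scramble siRNA by 1.21 (adjusted p = 0.00166), and of 3 tested markers of other cells HBA1 was, at 0.73 and 0.81 TPM against 2.10 and 1.96 TPM (0.99, adjusted p = 0.0136). Their part in the results on respiratory subunits was not tested.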
